A study of Mus musculus with 18 samples.

Results

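Fstl1, Tmsb4x, Slc25a4, Fbln1, Grb10, Emb, Klf2, Dnase2a and Kifc3 are 9 of the 24443 genes counted in both lines of this coculture study. They were chosen by their measured levels: at or near 0 counts in the breast cancer line 168FARN grown alone, and above 20 CPM in the libraries of the lung cancer line LLC1. CPM is the count of a gene per 1000000 counts of its library, after TMM scaling of the totals. The choice fixes the contrast between the lines and the starting point in 168FARN, so those values are given as a description and carry no test. The rule did not use the difference between cocultures with control and with Prrx1-deleted fibroblasts, which was tested in each line and between the lines. The 9 genes are a part of the 95 that meet the rule when the limit is set on LLC1 alone (72 when it is set on all 9 LLC1 libraries) and were picked with earlier results of these data known, so the p-values below come from genes that were not chosen independently of that contrast.

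RNA was sequenced from GFP-tagged mouse cancer cells that had been grown in hanging-drop spheroids and sorted, in 6 groups of 3 libraries. 168FARN cells were grown alone, with MMTV-CAF of the WT genotype, or with MMTV-CAF carrying a PRRX1 deletion, and LLC1 cells were grown alone, with WT wound healing fibroblasts, or with wound healing fibroblasts carrying the deletion. MMTV-CAF are cancer-associated fibroblasts from tumours of MMTV-PyMT mice, and the wound healing fibroblasts came from dorsal wounds at day 10. There were 3 fibroblasts for each cancer cell. The deletion was made with CRISPR/Cas9 and a guide against Prrx1 (sgPrrx1), and the WT cells had received the non-targeting guide sgNS. The deletion was thus in the fibroblasts and the RNA from the cancer cells, the fibroblast type differed between the lines, and no library of the fibroblasts themselves was analysed here. The labels do not say whether the 3 libraries of a group came from separate cultures, so p-values measure the spread between these libraries, which may be technical.

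The libraries held 48315037 to 68933002 counts in 168FARN and 66129117 to 103997557 in LLC1, which sets a floor of 3 counts at 0.0426 to 0.0626 CPM in 168FARN. Replicates varied less in 168FARN (common biological coefficient of variation 0.0728) than in LLC1 (0.228). Replicate 3 of LLC1 with sgPrrx1 fibroblasts stood apart from the other LLC1 libraries (scaling factor 0.883 against 0.996 to 1.03), and LLC1 results are therefore given with and without it. Prrx1 itself was counted in all libraries, at 87.2 to 89.7 CPM in 168FARN alone, 127.5 to 130.1 with WT and 110.9 to 113.1 with sgPrrx1 fibroblasts. In LLC1 it was at 178.7 to 226.6 CPM except in sgPrrx1 replicate 3, at 113.5. Because the deletion was in the fibroblasts, these levels do not check the genotype labels. Of the epithelial markers Epcam, Krt8, Krt18 and Cdh1, only Krt8 was expressed in 168FARN, at 323 to 422 CPM, and the others had 0 to 6 counts a library. In LLC1 the 4 together were at most at 0.565 CPM.

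Prrx1 is a homeobox transcription factor of mesenchymal cells. Fibroblasts deposit collagens, fibulins and other matrix proteins around neighbouring cells and exchange secreted factors with them. The 9 genes do not form 1 pathway. Fstl1 (a secreted glycoprotein of the SPARC family) and Fbln1 (fibulin-1, a matrix glycoprotein) act outside the cell. Emb (embigin, a membrane partner of monocarboxylate transporters) and Grb10 (an adaptor that binds the insulin receptor, transcribed from an imprinted locus) act at the membrane. Tmsb4x (thymosin beta 4, which binds monomeric actin) and Kifc3 (a kinesin that moves toward microtubule minus ends) belong to the cytoskeleton. Slc25a4 exchanges ADP and ATP across the inner mitochondrial membrane, Dnase2a encodes the lysosomal DNase II, and Klf2 is a zinc-finger transcription factor.

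The genes lie on 6 chromosomes, and 4 of the 9 are on chromosome 8 (Slc25a4, Klf2, Dnase2a and Kifc3). Promoter sequences from RefSeq (GRCm38.p6, the assembly of mm10) were found for 8 of the 9 genes, with 10 promoters in all, and Kifc3 had no entry. The 250 bases upstream of the start are shown for Tmsb4x and Klf2, which differed strongly between WT and sgPrrx1 coculture in 168FARN, for Slc25a4, which differed less, and for Fstl1, which had the highest count with WT fibroblasts. Each is written 5′ to 3′ on the strand of the gene. Capitals mark the GC box GGGCGG and the CCAAT box, each on either strand.
Tmsb4x, chrX:167209219-167209468, minus strand: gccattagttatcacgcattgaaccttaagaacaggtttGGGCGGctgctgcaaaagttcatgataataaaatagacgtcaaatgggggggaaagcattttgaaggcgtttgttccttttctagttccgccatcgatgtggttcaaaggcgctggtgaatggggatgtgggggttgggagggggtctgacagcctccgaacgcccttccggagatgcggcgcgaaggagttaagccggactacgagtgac
Klf2, chr8:72318812-72319061, plus strand: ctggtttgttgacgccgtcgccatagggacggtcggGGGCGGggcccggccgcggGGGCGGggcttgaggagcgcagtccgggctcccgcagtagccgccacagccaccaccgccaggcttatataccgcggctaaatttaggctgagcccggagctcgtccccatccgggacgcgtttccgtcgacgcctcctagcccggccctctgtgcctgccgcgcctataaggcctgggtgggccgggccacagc
Slc25a4, chr8:46211063-46211312, minus strand: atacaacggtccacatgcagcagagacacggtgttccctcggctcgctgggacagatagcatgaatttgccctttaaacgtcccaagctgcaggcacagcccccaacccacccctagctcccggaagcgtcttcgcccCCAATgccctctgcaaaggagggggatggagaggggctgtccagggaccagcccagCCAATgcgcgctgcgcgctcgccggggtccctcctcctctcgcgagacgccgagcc
Fstl1, chr16:37776805-37777054, plus strand: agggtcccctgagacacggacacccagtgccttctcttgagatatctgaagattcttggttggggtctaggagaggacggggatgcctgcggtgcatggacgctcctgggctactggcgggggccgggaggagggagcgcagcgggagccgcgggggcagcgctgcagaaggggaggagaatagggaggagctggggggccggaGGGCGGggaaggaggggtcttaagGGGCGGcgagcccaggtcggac

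The GC box was present in 7 of the 10 windows, against 32.7% of the 32851 RefSeq mouse promoters over the same length. The CCAAT box was in 2 of the 10, those of Slc25a4 and Dnase2a, against 33.9% of all promoters. No window held the TATA box TATAAA (12.4% of all promoters), the homeodomain core TAATTA (4.84%) or the AP-1 site TGACTCA (4.46%). The windows held 6 to 40 CG dinucleotides, against a median of 6 and quartiles of 2 and 16 over all promoters. The promoters were not chosen by sequence, and a match is a description of the letters only. The Tmsb4x window begins at a start inside the annotated gene, and Grb10 and Fbln1 have 2 windows each.

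In 168FARN grown alone, 8 of the 9 genes had 0 counts in all 3 libraries, and Klf2 had 3, 0 and 0. All 9 had counts in each of the 3 libraries with WT fibroblasts, between 72 and 4517 a library. As the genes were chosen for being silent in the cells grown alone, the rise is given as a lower bound without a test, the mean CPM of a group against the floor of 3 counts a library (mean 0.0567 CPM). Over all 13540 genes tested in 168FARN, 64.1% were called different between WT coculture and alone (edgeR, adjusted p below 0.05), and nothing is read from the members' count in that contrast. In these pooled libraries, a change in the number of cells of a type and a change in RNA per cell cannot be told apart.

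**Figure D1:**
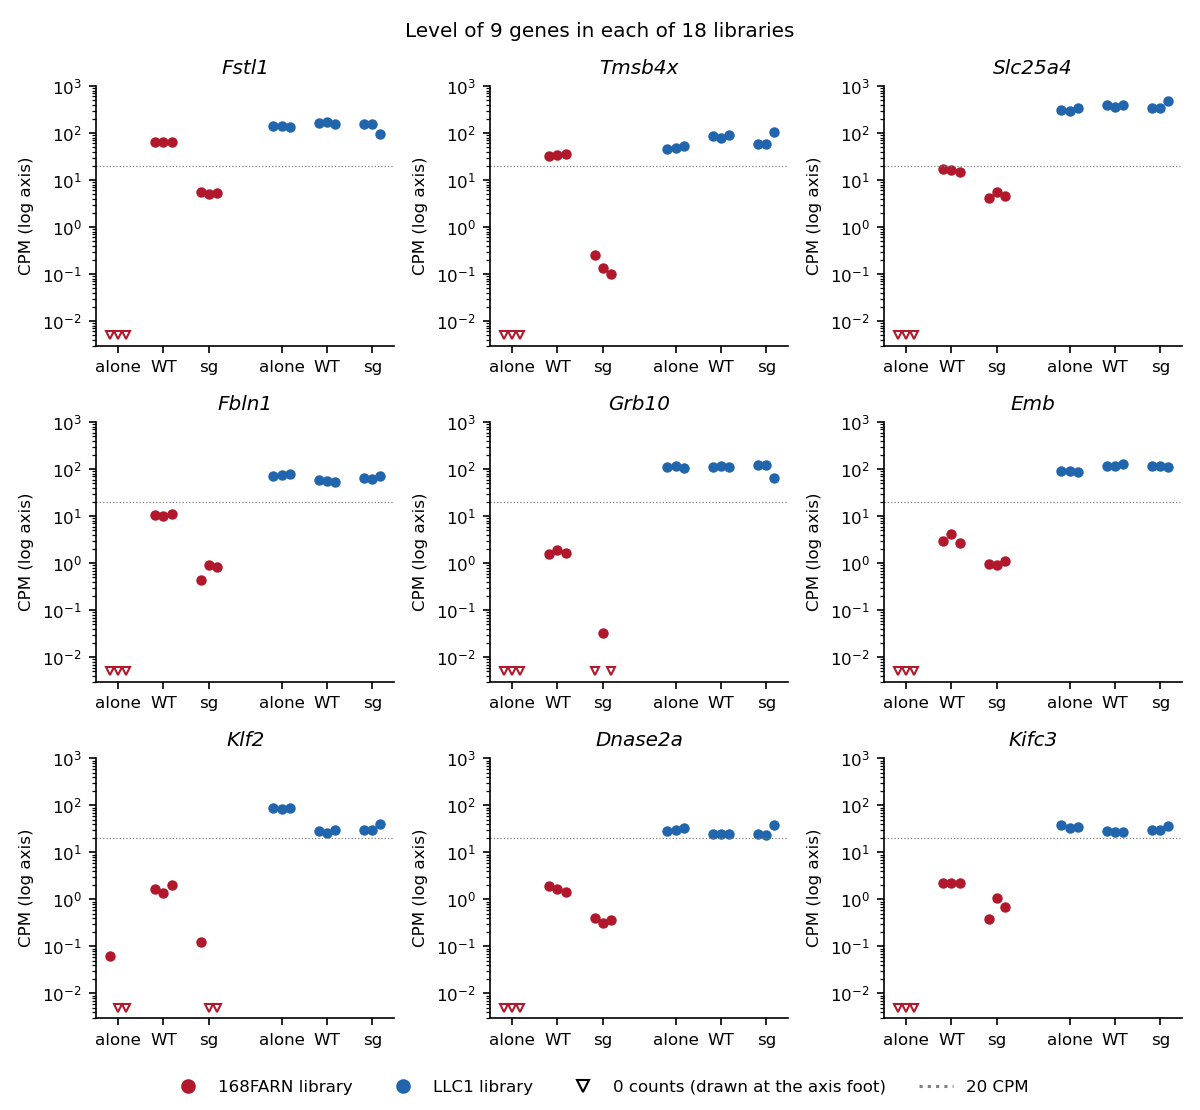
Level of each gene in each library, in CPM on a log axis, for 168FARN (red) and LLC1 (blue) grown alone, with WT and with sgPrrx1 (sg) fibroblasts. Each point is 1 of 3 libraries a group and open triangles are libraries with 0 counts. All 9 genes sit at the foot in 168FARN alone apart from 3 counts of Klf2, rise above it with WT fibroblasts and lie lower with sgPrrx1 fibroblasts, and all LLC1 libraries lie above 20 CPM.

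Fstl1 was at 64.2, 64.4 and 63.6 CPM with WT fibroblasts (64.1 ± 0.432, SD, n = 3), at least 1129-fold higher than in 168FARN alone. With sgPrrx1 fibroblasts it was at 5.61, 4.95 and 5.23 CPM (5.26 ± 0.332), still at least 92.8-fold higher than alone. The 3 groups did not overlap. Fstl1 fell by 3.61 on the log2 scale between WT and sgPrrx1 coculture (SE 0.0504, adjusted p = 1.95e-10, edgeR's quasi-likelihood test with Benjamini-Hochberg adjustment over all genes, as for the other adjusted p-values), to 8.20% of its WT level.

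Fbln1, the other matrix gene, was at 10.6, 10.1 and 11.2 CPM with WT fibroblasts (at least 187-fold higher than alone) and at 0.438, 0.936 and 0.829 CPM with sgPrrx1 fibroblasts (at least 12.9-fold higher than alone). Each sgPrrx1 library was below 1 CPM and each WT library above 10 CPM. It fell by 3.82 on the log2 scale (SE 0.200, adjusted p = 4.24e-07, edgeR), to 7.08% of WT.

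Tmsb4x had 2333, 2342 and 1721 counts with WT fibroblasts (33.1, 34.2 and 34.9 CPM) and 12, 8 and 6 counts with sgPrrx1 fibroblasts (0.250, 0.134 and 0.102 CPM). On average the level lay at least 601-fold above the cells grown alone with WT fibroblasts and at least 2.85-fold with sgPrrx1 fibroblasts. Tmsb4x fell by 7.75 on the log2 scale (SE 0.140, adjusted p = 1.02e-09, edgeR), to 0.464% of WT.

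Grb10 had 112, 131 and 80 counts with WT fibroblasts (1.71 ± 0.177 CPM, n = 3, at least 30.1-fold higher than alone). With sgPrrx1 fibroblasts it had 0, 2 and 0 counts, which is at or under the floor, so no fold against the cells grown alone is given. From the summed counts, 323 against 2, the level with WT fibroblasts was 143 times that with sgPrrx1 fibroblasts (95% exact interval 39.3 to 1188, counting error only). The fitted log2 change was -6.92 (SE 0.545, adjusted p = 5.54e-06, edgeR), and -9.44 without replicate 2 of each group, which holds both sgPrrx1 counts, so its size is not resolved.

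Klf2 had 117, 95 and 99 counts with WT fibroblasts (1.66, 1.39 and 2.01 CPM) against 6, 0 and 0 with sgPrrx1 fibroblasts. The ratio to the 3 counts in 168FARN alone was 88.9 with WT fibroblasts (95% exact interval 30.2 to 433.6, counting error only) and 1.94 with sgPrrx1 fibroblasts (0.413 to 11.96). Klf2 with sgPrrx1 fibroblasts was therefore not distinguishable at this depth from the cells grown alone. The fitted log2 change between the cocultures was -5.45 (SE 0.707, adjusted p = 5.53e-05, edgeR), and -9.62 without replicate 1 of each group, which holds all 6 sgPrrx1 counts, so its size is not resolved either.

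Slc25a4 was at 17.0, 16.6 and 14.6 CPM with WT fibroblasts, at least 283.7-fold above the cells grown alone, and at 4.23, 5.43 and 4.62 CPM with sgPrrx1 fibroblasts, at least 84.0-fold above. The groups did not overlap, and the gene fell by 1.75 on the log2 scale (SE 0.108, adjusted p = 1.2e-06, edgeR), to 29.6% of WT.

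Emb had 213, 292 and 133 counts with WT fibroblasts (3.33 ± 0.825 CPM, SD, n = 3), at least 58.7-fold above the cells grown alone, and 47, 56 and 65 counts with sgPrrx1 fibroblasts (1.00 ± 0.0848 CPM). All WT libraries lay above all sgPrrx1 libraries in CPM. It fell by 1.73 on the log2 scale (SE 0.220, adjusted p = 0.000131, edgeR). It remained at least 17.7-fold above the cells grown alone.

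Dnase2a was at 1.93, 1.65 and 1.46 CPM with WT and 0.396, 0.318 and 0.372 CPM with sgPrrx1 fibroblasts, at least 29.6-fold and 6.38-fold above the cells grown alone. It fell by 2.22 on the log2 scale (SE 0.246, adjusted p = 5.33e-05, edgeR), to 21.5% of WT.

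Kifc3 was at 2.29, 2.28 and 2.23 CPM with WT and 0.375, 1.07 and 0.677 CPM with sgPrrx1 fibroblasts, at least 39.95-fold and 12.5-fold above the cells grown alone. The sgPrrx1 libraries spread over a wider range than the WT libraries but did not reach them. It fell by 1.65 on the log2 scale (SE 0.309, adjusted p = 0.00141, edgeR), to 31.8% of WT. Fstl1, Grb10, Emb and Kifc3 overlap annotated non-coding genes or a pseudogene, and reads from overlapping genes cannot be told apart without strand.

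Thus all 9 genes were lower with sgPrrx1 than with WT fibroblasts, against 33.1% of the genes tested that were called lower and 60.0% called in either direction. The CPM of the cocultures did not overlap in any of the 9, against 66.2% of the genes tested. The median log2 change was -3.61 over the 9 genes and -0.03 over all genes. All 9 passed the filter on low counts through the WT group, in which they are high, so the count is not evidence of a direction beyond the values themselves.

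The sizes differed among the 9 genes, and the places of Grb10 and Klf2 rest on 2 and 6 counts with sgPrrx1 fibroblasts. Relative to WT, the fitted level was 0.464% for Tmsb4x, 0.826% for Grb10, 2.29% for Klf2, 7.08% for Fbln1 and 8.20% for Fstl1, and it was 21.5% for Dnase2a, 29.6% for Slc25a4, 30.1% for Emb and 31.8% for Kifc3. The 95% ranges (normal, from the SE) overlapped between each gene and the next in this order except between Fstl1 (7.66% to 8.78%) and Dnase2a (15.4% to 30.0%). Tmsb4x (0.384% to 0.561%) and Fstl1, the ends of the 5 lower values, did not overlap either, whereas Dnase2a and Kifc3 (20.9% to 48.3%), the ends of the 4 upper values, did. The gap between Fstl1 and Dnase2a is one among these 9 chosen genes.

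**Figure D2:**
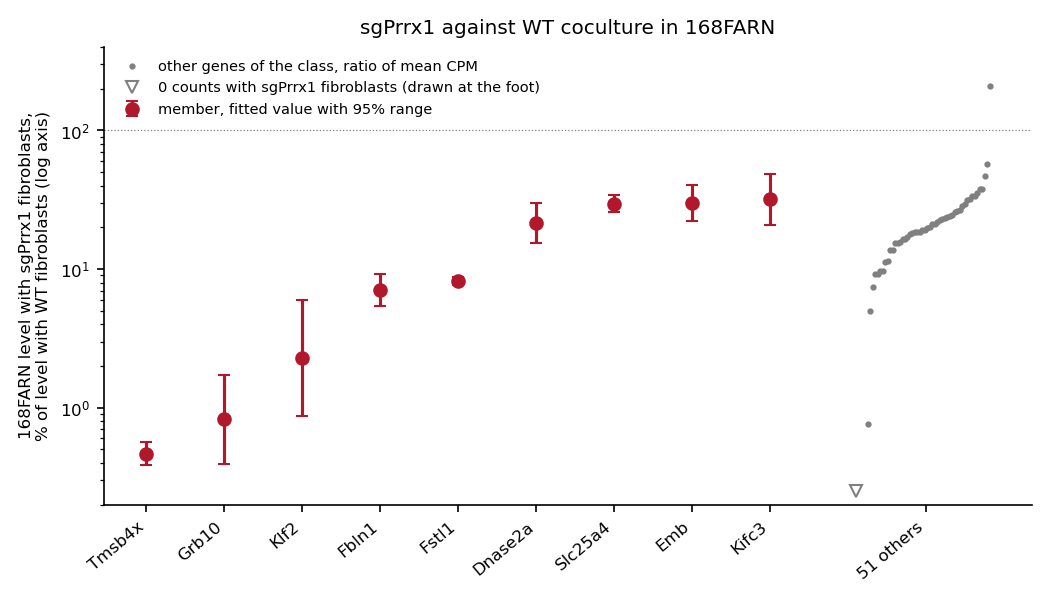
Level with sgPrrx1 fibroblasts as a percentage of the level with WT fibroblasts in 168FARN, on a log axis. Red points are the edgeR values of the 9 genes with bars of 95% ranges (normal, from the SE), grey points are the 51 other genes that met the same rule and had at least 100 counts over the 3 WT libraries, and the open triangle is a gene with 0 counts. The 9 genes run from 0.464% to 31.8%, and the median of the other genes is 19.9%.

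Within a library, depth and scaling cancel. Dividing by Slc25a4 keeps the order of the ratios above by construction and shows the spread of each proportion between libraries. Per 100 counts of Slc25a4 in the same library, Tmsb4x had 195, 206 and 239 counts with WT fibroblasts and 5.91, 2.46 and 2.20 with sgPrrx1 fibroblasts. Fstl1 had 377, 387 and 435 against 132, 91.1 and 113, and Fbln1 had 62.4, 60.5 and 76.4 against 10.3, 17.2 and 17.9. For these 3 genes, and for Grb10 and Klf2, the groups did not overlap.

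Emb had 17.8, 25.6 and 18.5 counts per 100 of Slc25a4 with WT and 23.2, 17.2 and 23.8 with sgPrrx1 fibroblasts, and Kifc3 had 13.4, 13.7 and 15.3 against 8.87, 19.7 and 14.7. In both the groups overlapped. Dnase2a had 11.3, 9.92 and 10.0 against 9.36, 5.85 and 8.06, with all WT values above the highest sgPrrx1 value. For Emb and Kifc3 a difference from the fall of Slc25a4 was not seen beyond the spread. A permutation test of 3 against 3 libraries cannot go below p = 0.10, so none is given.

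**Figure D3:**
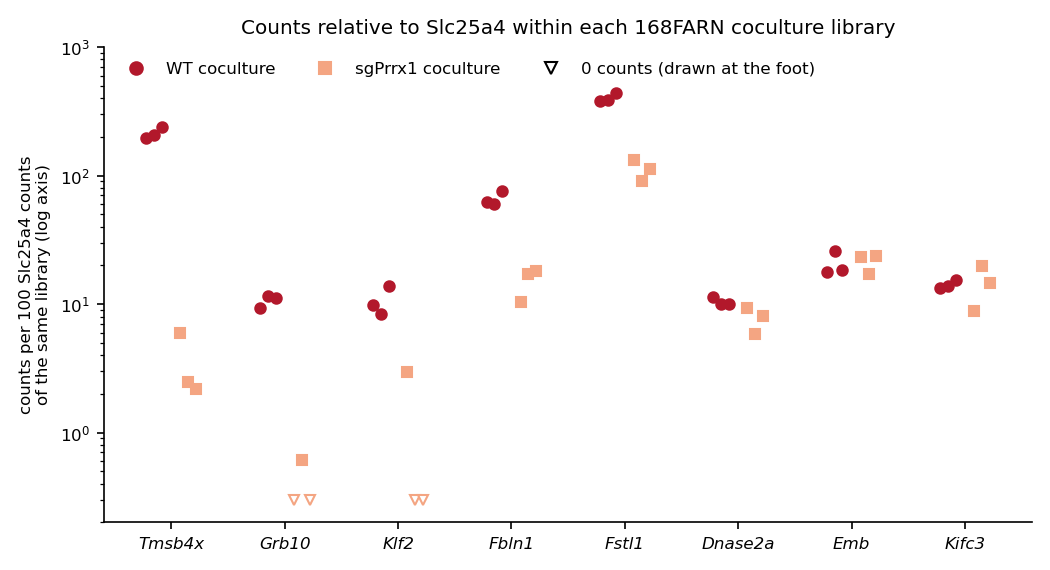
Counts of 8 genes per 100 Slc25a4 counts of the same 168FARN library, on a log axis, with WT (circles) and sgPrrx1 (squares) fibroblasts, 3 libraries each. Open triangles are libraries with 0 counts. Tmsb4x drops from 195 to 239 to between 2.20 and 5.91, whereas the groups of Emb and Kifc3 overlap.

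For scale, the 168FARN values were set beside those of LLC1 alone, after scaling all 18 libraries together. With WT fibroblasts, Tmsb4x reached 65.8% and Fstl1 43.4% of the level in LLC1 alone, Fbln1 13.2%, and the other 6 genes between 1.44% (Grb10) and 6.06% (Kifc3). With sgPrrx1 fibroblasts 7 of the genes were between 0.311% (Tmsb4x) and 3.55% (Fstl1), and Grb10 and Klf2 were under the floor. None of them reached the LLC1 level in either coculture.

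The rule used levels in LLC1, among them those of LLC1 alone, the reference of the LLC1 coculture comparisons. The p-values of these comparisons are therefore not independent of the choice. The lowest LLC1 alone library of each gene was at 29.1 CPM or more, against the limit of 20 CPM. In LLC1 the genes were expressed in all 9 libraries, and the difference between their lowest and highest library was 1.40-fold (Kifc3) to 3.50-fold (Klf2). The largest difference between groups was in Klf2. It was at 88.7, 84.2 and 87.8 CPM in LLC1 alone, 28.9, 25.4 and 30.6 CPM with WT fibroblasts and 29.8, 30.1 and 39.7 CPM with sgPrrx1 fibroblasts. Every coculture library was below every library of the cells grown alone. Klf2 fell by 1.62 on the log2 scale with WT (SE 0.136, adjusted p = 0.000959, edgeR) and by 1.39 with sgPrrx1 fibroblasts (SE 0.135, adjusted p = 0.00301).

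Emb was at 89.8, 91.2 and 87.5 CPM in LLC1 alone, 117.8, 114.6 and 126.9 CPM with WT and 116.8, 116.1 and 112.1 CPM with sgPrrx1 fibroblasts. It rose by 0.42 on the log2 scale with WT (SE 0.0790, adjusted p = 0.0167, edgeR) and by 0.36 with sgPrrx1 fibroblasts (SE 0.0790, adjusted p = 0.0432). The second call was lost with the replicate number as a block (adjusted p = 0.0663), which applies here since same-numbered libraries of these groups deviated together. It was also lost with library totals (adjusted p = 0.106), with no filter (0.0661) and with only the 2 groups fitted (0.174). Fbln1 was at 71.1, 74.8 and 80.4 CPM alone, 58.5, 55.0 and 54.0 CPM with WT and 65.7, 62.9 and 72.9 CPM with sgPrrx1 fibroblasts. It fell by 0.43 with WT fibroblasts (SE 0.0950, adjusted p = 0.0283, edgeR), and its log2 change of -0.17 with sgPrrx1 fibroblasts did not pass (adjusted p = 0.314).

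Tmsb4x was at 45.6, 47.3 and 53.1 CPM in LLC1 alone, 87.9, 77.1 and 92.6 CPM with WT and 58.3, 59.6 and 106.9 CPM with sgPrrx1 fibroblasts. Its log2 changes of 0.82 and 0.62 did not pass (adjusted p = 0.0636 and 0.152, edgeR), and the value of 106.9 CPM belongs to the library that stood apart. Slc25a4 was at 308.5, 291.1 and 334.7 CPM alone, 386, 363 and 402 CPM with WT and 343, 336 and 474 CPM with sgPrrx1 fibroblasts, again with the highest value in that library. Fstl1 (94.3 CPM against 155.7 and 158.8) and Grb10 (65.0 CPM against 123.2 and 123.5) were low in it. Dnase2a (23.5 to 38.3 CPM over the 9 libraries) and Kifc3 (26.7 to 37.6 CPM) did not pass in either coculture.

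In all, 3 of the 9 genes were called between WT coculture and LLC1 alone, against 8.83% of the 12873 genes tested, and 2 of the 9 between sgPrrx1 coculture and alone, against 4.32%. Both comparisons use the same 3 libraries of LLC1 alone. Between sgPrrx1 and WT coculture, 0 of the 9 genes were called by edgeR or DESeq2, against 0.0544% of all genes by edgeR and 501 genes by DESeq2. Of the 9, 1, Fbln1, had an unadjusted p below 0.05 (edgeR). The log2 differences between the cocultures ran from -0.24 (Fstl1) to 0.27 (Fbln1). The 95% range of the level with sgPrrx1 fibroblasts reached down furthest for Tmsb4x (64.1% to 119% of WT) and was narrowest for Emb (86.3% to 107%). As a ratio, a change of the size seen in 168FARN lies outside these ranges for each of the 9 genes. The genes have higher levels in LLC1, so the same change in CPM would be a smaller ratio there, and it was not tested.

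Without sgPrrx1 replicate 3, the spread of the LLC1 libraries was smaller and 8 of the 9 genes were called between WT coculture and alone, all but Grb10, against 44.2% of the genes tested. Klf2 was then at -1.61 (adjusted p = 4.86e-06, edgeR) and Tmsb4x at 0.83 (adjusted p = 0.000168). Between sgPrrx1 coculture and alone 7 were called, against 26.7% of the genes tested. Among them was Fstl1, which changed sign from -0.02 (not called) to 0.19 (adjusted p = 0.0452, edgeR). Between the cocultures 1 was called, against 5.69%, which was Tmsb4x, lower with sgPrrx1 fibroblasts by 0.55 on the log2 scale (adjusted p = 0.0275, edgeR). When replicate 1 or replicate 2 of every LLC1 group was left out instead, 0 genes of the table, and so 0 of the 9, were called in any LLC1 comparison by edgeR. At an unadjusted p below 0.05, 4 of the 9 then passed between WT coculture and alone (9.44% and 10.5% of all genes in the 2 settings), 1 between sgPrrx1 coculture and alone (9.20% and 9.29%) and 0 between the cocultures (3.44% and 3.73%).

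**Figure D4:**
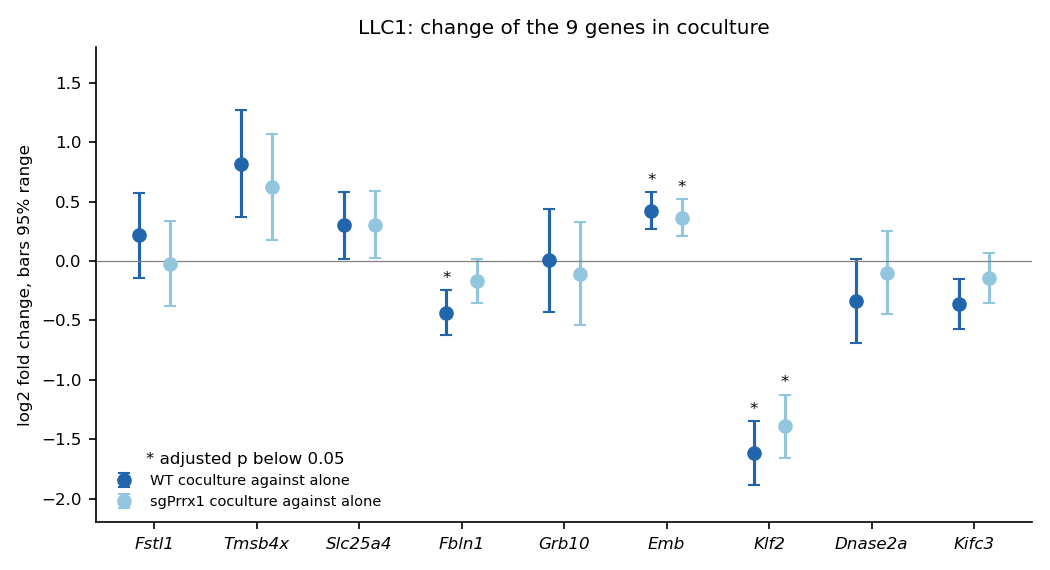
Log2 fold change of the 9 genes in LLC1 with WT (dark blue) and sgPrrx1 (light blue) fibroblasts against LLC1 alone, from edgeR, with bars of 95% ranges (normal, from the SE) and an asterisk where the adjusted p was below 0.05. Klf2 lies at -1.62 and -1.39, Emb at 0.42 and 0.36, and the other values between -0.43 and 0.82.

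The difference between sgPrrx1 and WT coculture was itself compared between the lines, as an interaction term over 18 libraries. It was called for all 9 genes, against 19.3% of the 14365 genes tested, with a more negative change in 168FARN in each. The genes were chosen as silent in 168FARN alone and expressed in LLC1, so the same change in CPM is a larger ratio in 168FARN. They also had counts in 168FARN mainly through the WT group. Nothing is therefore read from that count or from the shared direction, and the values below are a description. The difference in log2 change, 168FARN minus LLC1, was -7.52 for Tmsb4x (SE 0.364, adjusted p = 8.15e-08, edgeR), -4.08 for Fbln1 (SE 0.226, adjusted p = 2.19e-07) and -3.35 for Fstl1 (SE 0.230, adjusted p = 1.07e-06). The smallest was -1.65 for Emb (SE 0.191, adjusted p = 6.56e-05). Line and fibroblast type changed together and cannot be told apart here, and by their choice the genes start from different levels in the 2 lines.

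Fibroblasts were the other cells of the spheroid, and their markers moved with the 9 genes in 168FARN. The summed level of 15 fibroblast markers was 269.7 to 271.2 CPM in 168FARN alone, 1183 to 1281 CPM with WT and 396 to 406 CPM with sgPrrx1 fibroblasts. Of the 13 markers tested, 11 were higher with WT fibroblasts than alone, beside 33.4% of all genes, and 11 were lower with sgPrrx1 than with WT fibroblasts (median log2 change -1.91), beside 33.1%. Thy1 and Postn were at 0 counts in 168FARN alone, Fap was at 0 with WT fibroblasts, and Lum, Thy1 and Fap were at 0 with sgPrrx1 fibroblasts. Their part in the result was not tested.

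The markers differed among themselves as the 9 genes did. Postn, which encodes the matrix protein periostin, had 1552, 1581 and 1050 counts with WT and 0, 4 and 0 with sgPrrx1 fibroblasts, which is 0.101% of the WT level. Col1a1 was at 6.45%, Col3a1 at 13.7%, Col6a3 at 26.6%, Pdgfra at 74.2% and Twist2 at 143% of WT. Pdgfra (69.0 to 69.9 CPM) and Twist2 (41.1 to 42.1 CPM) were already expressed in 168FARN alone. So were Col5a1 (mean 56.2 CPM), Pdgfrb (43.05 CPM), Col6a3 (36.9 CPM) and Mfap5 (10.6 CPM). With sgPrrx1 fibroblasts Col5a1 was at 40.9%, Pdgfrb at 65.7% and Mfap5 at 105.6% of WT.

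In LLC1 the same markers summed to 1882 to 1977 CPM alone, 1421 to 1455 CPM with WT and 1777 to 1856 CPM with sgPrrx1 fibroblasts. Without Col3a1, at 1579 CPM in LLC1 alone, the sums were 325 to 352, 357 to 374 and 369 to 399 CPM. Single collagen genes nevertheless differed. Col1a1 was at 0.375 CPM in LLC1 alone, 8.60 CPM with WT and 0.681 CPM with sgPrrx1 fibroblasts, and Col1a2 had 7, 2004 and 67 counts over the 3 libraries of each. Both rose with WT fibroblasts (adjusted p = 0.000316 and 0.00022, edgeR) and were lower with sgPrrx1 than with WT fibroblasts, at 7.86% and 3.07% of WT (adjusted p = 0.0054 and 0.00361). Dcn rose 10.5-fold with WT fibroblasts (adjusted p = 0.00022). In all, 3 of the 10 markers tested were higher and 2 lower between WT coculture and LLC1 alone, beside 4.25% of all genes higher and 4.58% lower. Between the cocultures 2 were lower, beside 0.0544% of all genes called. Their part in the LLC1 results was not tested. Of the leukocyte markers, Ptprc and Cd3e were at 0 in all 9 168FARN libraries. The summed leukocyte level in 168FARN was 23.3 to 24.8 CPM alone, 14.95 to 17.6 CPM with WT and 14.5 to 16.0 CPM with sgPrrx1 fibroblasts. Cd68 fell from 23.9 CPM alone to 14.8 CPM with WT fibroblasts (adjusted p = 3.98e-06, edgeR). Csf1r was at 0.348 CPM alone, 1.24 CPM with WT and 1.39 CPM with sgPrrx1 fibroblasts, a rise with WT fibroblasts (adjusted p = 9.48e-05). In LLC1 the sum was 15.7 to 17.0 CPM alone and 36.0 to 63.7 CPM in coculture, nearly all of it Cd68, with Ptprc and Cd3e at 0 to 3 counts and Csf1r at most at 0.141 CPM. The 3 endothelial markers Pecam1, Cdh5 and Tek summed to 0.534 to 0.545 CPM in 168FARN alone, 5.65 to 6.74 CPM with WT and 4.08 to 4.64 CPM with sgPrrx1 fibroblasts, and to at most 0.235 CPM in LLC1. In 168FARN this was Cdh5, at 0.277, 5.94 and 3.90 CPM, which was higher with WT fibroblasts than alone (adjusted p = 3.29e-08, edgeR) and lower with sgPrrx1 than with WT fibroblasts (65.9% of WT, adjusted p = 0.00681). The part of these markers in the result was not tested.

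Of 21 relatives of the same gene families, 7 had at most 10 counts in each 168FARN alone library (Smoc2, Slc25a31, Fbln5, Efemp1, Grb7, Grb14 and Dnase2b) and 14 had more. In all, 16 were tested. Between WT coculture and alone, 10 were higher, 4 were lower and 2 did not pass, beside 33.4% of all genes higher and 30.7% lower. Between sgPrrx1 and WT coculture 2 were higher, 8 were lower and 6 did not pass (median log2 change -0.26, against -0.03 over all genes), beside 26.9% higher and 33.1% lower. Tmsb10, the other thymosin beta gene of the list, was at 287 CPM in 168FARN alone, 360 CPM with WT and 416 CPM with sgPrrx1 fibroblasts. Its log2 difference between the cocultures, 0.21, did not pass (adjusted p = 0.0579, edgeR).

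Slc25a5, the second ADP/ATP carrier gene, was at 415 CPM in 168FARN alone, 339 CPM with WT and 464 CPM with sgPrrx1 fibroblasts. It rose by 0.45 on the log2 scale between WT and sgPrrx1 coculture (adjusted p = 5.38e-06, edgeR), where Slc25a4 fell. Klf4, at 49.5, 60.6 and 64.8 CPM, and Klf6, at 168, 208 and 221 CPM in the same order, were expressed in 168FARN alone. Bsg (basigin, related to embigin) was at 776, 895 and 838 CPM. How reads that match more than 1 of these related genes were counted is not given in the sources used here.

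Of the 4 fibulin relatives, 3 were tested in 168FARN and fell between the cocultures, and Efemp1, with at most 3 counts a library, was not tested. Fbln2 was at 18.7 CPM in 168FARN alone, 265.5 CPM with WT and 41.7 CPM with sgPrrx1 fibroblasts, and fell by 2.67 on the log2 scale between the cocultures (adjusted p = 2.74e-12, edgeR). Efemp2 was at 0.265, 16.9 and 2.36 CPM and fell by 2.84 (adjusted p = 1.07e-09). Fbln5 was at 0.0686, 1.10 and 0.117 CPM and fell by 3.24 (adjusted p = 0.000245). Grb14, a relative of Grb10, was at 0 in 168FARN alone, 0.473 CPM with WT and 0 with sgPrrx1 fibroblasts.

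In LLC1, 4 of 15 relatives tested were called between WT coculture and alone, beside 8.83% of all genes. Fbln2 was at 0.0331 CPM alone, 6.08 CPM with WT and 0.655 CPM with sgPrrx1 fibroblasts, and it was the relative called between the LLC1 cocultures, lower by 3.21 on the log2 scale (adjusted p = 0.0398, edgeR). Klf4 fell by 1.17 with WT fibroblasts (adjusted p = 0.00584), beside the fall of Klf2, and Kifc2 fell by 1.27 (adjusted p = 0.00587). Tmsb10 rose by 0.96 (adjusted p = 0.0487).

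Among the 54 annotated genes that lie up to 3 places to either side of a member, 28 had at most 10 counts in each 168FARN alone library. Of the 16 neighbours above 20 CPM in LLC1 alone, 0 were among those 28, where 1.31% of all genes above 20 CPM in LLC1 alone were silent in 168FARN alone, so nothing is read from that count.

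Written out over both tables as at most 10 counts in each 168FARN alone library and above 20 CPM in each LLC1 alone library, the rule held for 95 genes, which is 1.31% of the 7252 genes above 20 CPM in LLC1 alone. They were the 9 members and 86 others. By level in LLC1 alone the first 10 were Slc25a4, Nrn1, Fstl1, Myh10, Eml2, Casc4, Grb10, Rab6b, Peg10 and Fkbp10. Just inside the thresholds lay Grb14 (lowest LLC1 alone library 20.01 CPM) and Rnf157 (10 counts), and just outside lay Cxadr (19.97 CPM) and Cgnl1 (11 counts). Of the 93 genes with a chromosome, 12 (12.9%) were on chromosome 8, against 4.80% of annotated genes.

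In this wider set, 70 genes were tested in 168FARN, and 62 of them were lower and 2 higher with sgPrrx1 than with WT fibroblasts, beside 33.1% of all genes called lower. As the set is silent in the cells grown alone, a gene passed the filter on low counts largely through its counts with WT fibroblasts, which favours the lower direction, so nothing is read from that count. The 2 that rose, named after their values were seen, were Fam110c (0.145 to 0.790 CPM) and Cmpk2 (0.427 to 1.40 CPM). Among the 51 non-members with at least 100 counts over the WT libraries, the level with sgPrrx1 fibroblasts had a median of 19.9% of WT, with quartiles of 15.5% and 26.6%. Of these, 8 lay below 10%, 4 between 10% and 15%, 33 between 15% and 35%, 5 between 35% and 100%, and 1 above 100%. The last, Atp6v0c-ps2, a pseudogene, had 1, 1 and 10756 counts with WT and 10978, 13610 and 2 with sgPrrx1 fibroblasts, so single libraries decide its value. Of the 9 members, 4 lay between 15% and 35% and 5 below 10%. Coculture did not bring counts to every gene of the set: 17 of the 95 had at most 3 counts over the 3 WT libraries.

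The genes whose pattern over the 18 libraries was most like that of a member were found among 11292 non-member genes with a mean of at least 100 counts, by the root mean square difference of log2(CPM + 0.5), each gene centred on its mean. Col3a1 was nearest to Fstl1 (0.75) and to Fbln1 (0.25), Efemp2 to Tmsb4x (0.94), Serpinh1 to Slc25a4 (0.49), and Eml2 to Grb10 (0.37). Scarf2 was nearest to Emb (0.34), Rnf157 to Klf2 (0.36), Pdxp to Dnase2a (0.17) and Dhx40 to Kifc3 (0.22). Col3a1 was at 8.20, 239 and 32.7 CPM in 168FARN alone, with WT and with sgPrrx1 fibroblasts, and Serpinh1, a collagen chaperone, was at 0.488, 51.8 and 7.67 CPM. The gene nearest to Tmsb4x kept 14.0% of its WT level with sgPrrx1 fibroblasts, against 0.464% for Tmsb4x.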

How the data were processed

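Total RNA of sorted cancer cells was sequenced in 18 libraries with an unstranded TruSeq v2 kit and paired-end reads. The submitters' processing notes name Trimmomatic, STAR and HTSeq with mm10. The deposited values are whole-number read counts per gene symbol as the authors made them, in 1 table for each line, and were taken as raw. The study's methods also name a batch correction by ComBat-seq, which returns whole numbers too. Whether it was applied to these libraries is not stated, and it could change counts and differences between groups. The annotation, the strand setting and the treatment of reads matching several genes are not given in the sources used here. Symbols turned into dates were kept in the fit of each line, and some of them were left out of the genes common to both lines.

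The 9 genes, their relatives and marker lists, and the tests were chosen with earlier results of these data known. Named genes were the members, their listed relatives, the nearest gene by pattern, and up to 10 genes of the wider set by LLC1 level. Counts were fitted in each line over its 3 groups, and over both lines for the interaction, with edgeR 4.0.16 (TMM, filterByExpr, quasi-likelihood test, Benjamini-Hochberg adjustment, threshold 0.05). DESeq2 1.42.0, other scalings, filters, left-out libraries and a replicate block were alternatives. The joint fit shares 1 dispersion trend between lines of unequal spread. The code was tested on simulated data. Levels are TMM-scaled CPM, and exact 95% intervals and the floor of 3 counts cover counting error only, since reads without molecular identifiers are not independent molecules. Replicates differed by more than sampling noise (chi-square per degree of freedom at least 11.1 in 168FARN and 26.6 in LLC1). The labels number replicates alike in each group. Same-numbered libraries of LLC1 alone and LLC1 with sgPrrx1 fibroblasts deviated together from their group means (correlations 0.131, 0.249 and 0.419, each over 0.1), so that comparison is also given with a replicate block. RefSeq positions and promoters are on GRCm38.p6.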

Additional observations from a re-analysis of the deposited data

Results flagged for a closer look

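Each of the 9 genes was singled out because its log2 change between sgPrrx1 and WT coculture differed between the lines by the interaction test. The difference, 168FARN minus LLC1, was -3.35 for Fstl1, -7.52 for Tmsb4x, -1.74 for Slc25a4, -4.08 for Fbln1, -6.83 for Grb10, -1.65 for Emb, -5.67 for Klf2, -2.43 for Dnase2a and -1.85 for Kifc3. The line and the fibroblast type changed together and cannot be told apart. The genes were chosen as silent in 168FARN alone and expressed in LLC1, which favours such a difference in ratio. Nothing is read from the shared direction.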

How the results depend on the processing

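In 168FARN, the fall of each of the 9 genes between WT and sgPrrx1 coculture kept its direction and its call in all 81 values from 9 alternatives a gene, and so did the 81 values of the interaction. The choice of the genes favours both directions in every setting, so this is not further evidence of a direction. Fitted sizes of Grb10 (-9.44 to -6.41) and Klf2 (-9.62 to -4.70) moved most. The LLC1 counts depended on the settings. Between WT coculture and alone, 3 of the 9 genes were called, beside 1137 of all genes. With library totals in place of TMM 5 were called (beside 1339), and 5 with DESeq2 (2276). When only the 2 groups compared were fitted 8 were called (5167), and 0 to 8 when libraries were left out (0 to 6457). Between sgPrrx1 coculture and alone, 2 of the 9 genes were called, beside 556 of all genes. With library totals 1 was called (beside 700), and 1 with no filter beyond 1 count (378). When only the 2 groups compared were fitted 1 was called (27), and 0 to 8 when libraries were left out (0 to 5143). Between the LLC1 cocultures 0 to 1 of the 9 genes were called over left-out libraries, and the calls over all genes are given below.

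Values near 0 changed sign. In LLC1 sgPrrx1 against WT coculture, Slc25a4 (0.00271) went to -0.012 with RLE scaling (-0.01242) and DESeq2 (-0.01248), to -0.067 with library totals, to -0.01303 with only the 2 groups, and to between -0.18 and 0.0594 without a library, Grb10 to between -0.29 and 0.13, and Dnase2a to between -0.0349 and 0.35. In sgPrrx1 coculture against LLC1 alone, left-out libraries moved Fstl1 (-0.02, not called) between -0.14 and 0.19, with a called rise without replicate 3 of each group (0.18, adjusted p = 0.00904, edgeR) and without sgPrrx1 replicate 3 (0.19, adjusted p = 0.0452), and Grb10 between -0.24 and 0.15 and Dnase2a between -0.35 and 0.0168. In WT coculture against alone they moved Grb10 between -0.0048 and 0.0485. The cause was not tested.

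Replicate numbers were taken to pair the samples only for LLC1 alone and sgPrrx1 coculture, by their correlations and not by a statement in the labels. For the other groups, correlations of same-numbered deviations were -0.0734 to 0.0627 in 168FARN and -0.0414 to 0.242 in LLC1. With the replicate block, 9 of the 9 genes were called between the 168FARN cocultures, beside 8044 of all genes. In LLC1, 4 were called between WT coculture and alone, beside 1028 of all genes. Between LLC1 sgPrrx1 coculture and alone 1 was called (Klf2, with Emb lost), beside 381. Between the LLC1 cocultures 0 were called, where Slc25a4 was at -0.01204 and 2 genes of the table were called in place of 7.

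Over all genes, the calls between LLC1 WT coculture and alone numbered 1137, against 2276 with DESeq2, 5167 with only the 2 groups compared, 5779 without sgPrrx1 replicate 3 and 6457 without replicate 3 of each group. Between sgPrrx1 coculture and alone they numbered 556, against 1944, 27, 3495 and 5143 in the same order, and between the cocultures 7, against 501, 11, 745 and 2310. The interaction gave 2771 calls, against 518, 671 and 6344 without replicate 1, 2 and 3 of each group and 6517 without LLC1 sgPrrx1 replicate 3. With 0 counts required in each 168FARN alone library, 57 genes in place of 95 met the written rule, with 8 of the 9 genes inside, all but Klf2. Levels under 3 counts a library were not resolved at this depth.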
